A study of Homo sapiens with 12 samples.

Results

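The junction genes described here are 10 genes of epithelial cell contacts: the claudins CLDN1, CLDN3, CLDN4, CLDN7 and CLDN12, the tight junction proteins OCLN, F11R and TJP1, the cadherin CDH1 and the adhesion molecule EPCAM. They were taken by name, as every row of the deposited expression table whose list of gene symbols held 1 of the 10. That gave 11 of the 57908 loci in the table, since F11R is named by 2 loci, and all 10 genes were found. Loci that carry a single name held 49368 distinct names, while CLDN7 and CLDN12 are named only in loci with several names. Of the 11 loci 9 passed the filter on low values and were tested, among 15833 tested loci in all. CLDN1 and the second F11R locus did not pass.

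Tight junctions seal the space between neighbouring epithelial cells near their apical side. Claudins are the membrane proteins that form the strands of this seal, and each claudin sets whether the strand acts as a barrier or as a pore for ions. Occludin (OCLN) and junctional adhesion molecule A (F11R) lie in the same strands or beside them, and the scaffold ZO-1 (TJP1) ties them to the actin cytoskeleton. E-cadherin (CDH1) forms the adherens junction below, and EPCAM is an adhesion molecule of epithelial cells that binds claudin 7 along the lateral membrane.

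HCT116, an established human colorectal carcinoma line, was transfected with a plasmid for flag-tagged NSE4A (NSE4 cells), for flag-tagged SMC5 (SMC5 cells) or with a control plasmid (GFP cells, which the sample titles call GFP and the design text an empty vector). Both tagged proteins are subunits of the SMC5/6 complex, which acts in DNA repair and chromosome segregation. A day after transfection each culture was split and given either doxorubicin, an anthracycline that traps topoisomerase II on DNA, at 1000 nM for 24 h, or PBS. The 6 groups, of 2 libraries each, were therefore doxorubicin-treated NSE4, SMC5 and GFP cells and PBS-treated NSE4, SMC5 and GFP cells, and the study asked how the complex bears on growth and on cell death under the drug. All 6 groups carry a transiently transfected plasmid, and the genotype labels give GFP cells as WT and the others as overexpressing NSE4 or SMC5. None of the sources used here gives the share of cells that took up a plasmid.

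Estimated depth was 13.0 to 19.7 M (1e6) fragments per library, and 23635 to 26185 loci were above 0 in a library. The 2 columns of doxorubicin-treated SMC5 cells stood apart from the other 5 pairs: they shared 1091 identical values above 0, where each other pair shared 0, and 7 loci were detected in a single column of the pair, where the others had 4216 to 5291 such loci. They differed by less than separate libraries of this depth would, so their mean was counted as 1 sample, which left 11 samples. The sources do not state whether the libraries of a group derive from separate cultures, and the p-values therefore reflect a spread between samples that may be technical. The targeted genes fitted the labels: NSMCE4A, which encodes NSE4A, was at 5283 and 6287 FPKM in doxorubicin-treated NSE4 cells and at 4069 and 4186 FPKM in PBS-treated NSE4 cells, against at most 89.4 FPKM in the GFP libraries, and SMC5 was at 772 to 979 FPKM in the SMC5 libraries, against at most 34.4 FPKM in the other libraries. Values are FPKM, fragments scaled by transcript length and by mapped fragments, so levels can be compared between genes.

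The 10 genes spanned levels from CLDN1 at 0.148 FPKM in 1 sample to CLDN7 at 530.5 FPKM in another. In the 6 PBS samples the medians ran from CLDN7 at 500.2 FPKM through CLDN4 at 288, F11R at 243, EPCAM at 137, CLDN12 at 34.3, CDH1 at 25.4, CLDN3 at 23.6, TJP1 at 20.1 and OCLN at 10.1 to CLDN1 at 0.156. In this order the FPKM ranges of CLDN4 and F11R overlapped, as did those of CLDN3 and TJP1, and no other neighbours overlapped. In the 5 doxorubicin samples the medians ran from CLDN7 at 426 FPKM through F11R at 229, CLDN4 at 129.6, EPCAM at 127, CDH1 at 26.0, CLDN12 at 23.5, TJP1 at 21.0, CLDN3 at 11.02 and OCLN at 8.06 to CLDN1 at 0.513. CLDN4 thus stood at the level of F11R in PBS-treated cells, and in doxorubicin-treated cells its range overlapped that of EPCAM. Of these loci 3 also name other genes, and their values cannot be split between them: the CLDN7 locus also holds CTDNEP1 and GABARAP, the CLDN12 locus CDK14 and GTPBP10, and the F11R locus ARHGAP30, TSTD1 and USF1.

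**Figure D1:**
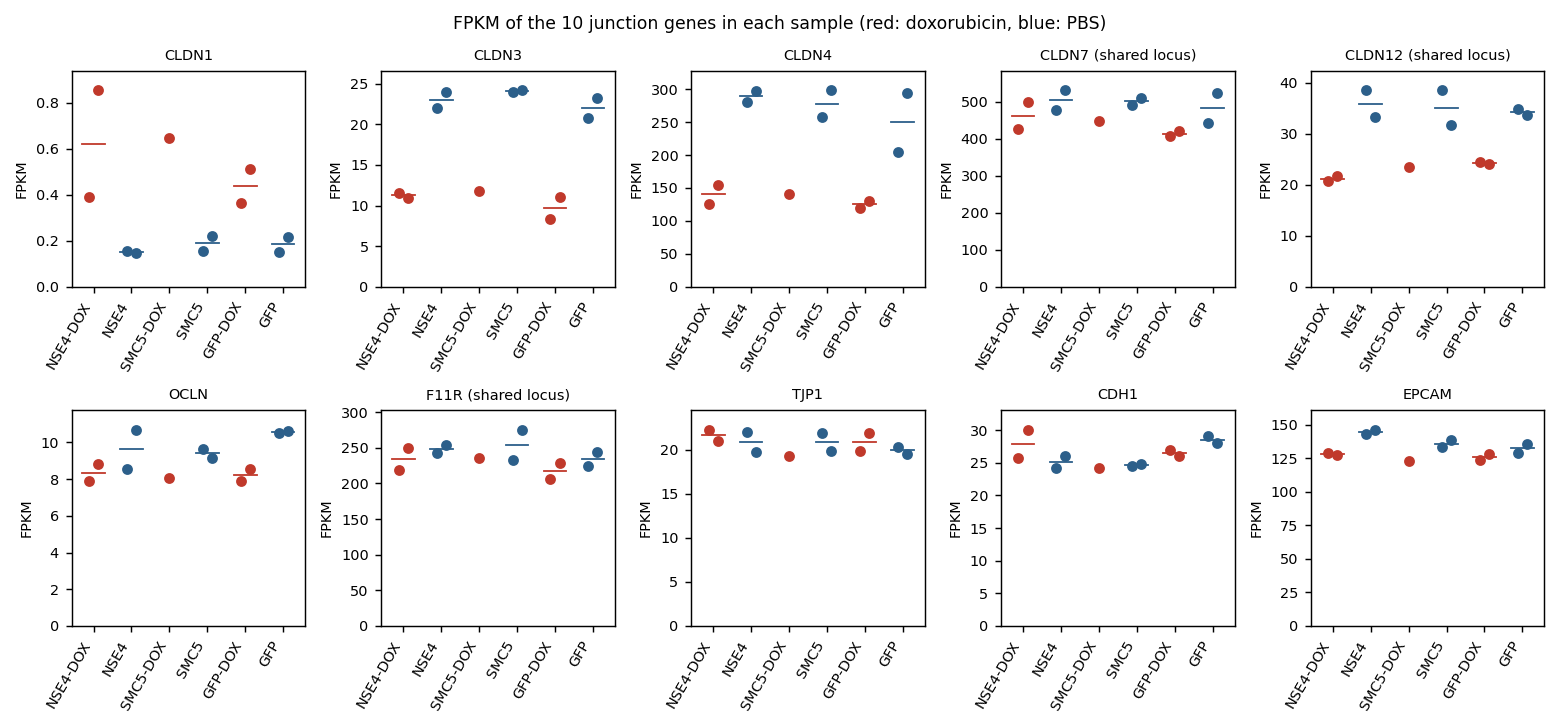
FPKM of each of the 10 genes in each sample, 1 panel per gene with its own axis from 0. Red points are doxorubicin-treated samples and blue points PBS-treated samples, grouped by plasmid, and short lines are group means of the 2 samples; doxorubicin-treated SMC5 cells are the mean of 2 near-identical columns. CLDN3, CLDN4 and CLDN12 lie lower in every doxorubicin sample, and CDH1 and TJP1 overlap between treatments.

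Doxorubicin was set against PBS within each plasmid to ask which junction genes follow the drug. CLDN3, CLDN4 and the CLDN12 locus fell in all 3 kinds of cells, by about 2-fold for CLDN3 and CLDN4 and less for CLDN12. No tested junction gene rose. CDH1, TJP1 and F11R stayed within 0.15 of 0 on the log2 scale in each comparison. With limma and Benjamini-Hochberg adjustment at 0.05, 3 of the 9 tested loci fell and 0 rose in doxorubicin-treated GFP cells, where 31.1% of all tested loci were called, 14.1% fallen and 17.0% risen. In NSE4 cells the count was again 3 fallen and 0 risen, against 30.2% of all loci called, 13.9% fallen and 16.3% risen. In SMC5 cells 3 fell and 0 rose, against 20.9% of all loci called, 9.87% fallen and 11% risen. The median log2 difference of the 9 loci was -0.18 in NSE4 cells, -0.16 in SMC5 cells and -0.22 in GFP cells, beside 0.03, 0.02 and 0.02 for all tested loci in the same cells. Fold changes are on the log2(FPKM + 1) scale, which understates changes of genes with low FPKM, and in whole cultures fewer cells of a type and less RNA per cell cannot be told apart.

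Claudin 3 and claudin 4 are barrier-forming claudins and the known receptors for the Clostridium perfringens enterotoxin. CLDN3 was at 11.5 and 10.98 FPKM in doxorubicin-treated NSE4 cells, against 22.0 and 24.0 FPKM in PBS-treated NSE4 cells. In SMC5 cells CLDN3 was at 11.8 FPKM with doxorubicin, the mean of columns of 10.7 and 12.9, against 24.0 and 24.2 FPKM with PBS. In GFP cells it was at 8.29 and 11.02 FPKM with doxorubicin, against 20.8 and 23.3 FPKM with PBS. Every doxorubicin sample lay below every PBS sample, and the groups did not come near each other. The log2 difference of CLDN3 was -0.97 in NSE4 cells (SE 0.14, limma adjusted p = 0.00142), -0.97 in SMC5 cells (SE 0.17, limma adjusted p = 0.0056) and -1.12 in GFP cells (SE 0.14, limma adjusted p = 7.17e-04). These 3 calls held without each of the libraries that could be left out.

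CLDN4 followed the same course at a higher level. It was at 126 and 155 FPKM in doxorubicin-treated NSE4 cells, against 281 and 297 FPKM in PBS-treated NSE4 cells. In SMC5 cells CLDN4 was at 141 FPKM with doxorubicin, against 257 and 298 FPKM with PBS. In GFP cells it was at 120.3 and 129.6 FPKM with doxorubicin, against 205 and 294 FPKM with PBS. The treatments did not overlap, and the widest gap between replicates was that of the PBS-treated GFP cells. The log2 difference of CLDN4 was -1.04 in NSE4 cells (SE 0.17, limma adjusted p = 0.00329), -0.97 in SMC5 cells (SE 0.21, limma adjusted p = 0.0164) and -0.97 in GFP cells (SE 0.17, limma adjusted p = 0.00441). The call in SMC5 cells was lost without PBS-treated SMC5 replicate 2 (limma adjusted p = 0.0688).

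Within single libraries, where depth cancels, CLDN4 was lower relative to EPCAM and CLDN3 relative to CDH1. The ratio of CLDN4 to EPCAM was 0.975 to 1.22 in the 5 doxorubicin samples, against 1.59 to 2.17 in the 6 PBS samples. The ratio of CLDN3 to CDH1 was 0.309 to 0.486 with doxorubicin, against 0.716 to 0.976 with PBS. The ratio of CLDN3 to CLDN4 overlapped, at 0.0689 to 0.0911 with doxorubicin and 0.0782 to 0.102 with PBS. The ratio of CLDN4 to the CLDN12 locus, which also fell, overlapped as well, at 4.91 to 7.16 with doxorubicin and 5.87 to 9.38 with PBS. That of CLDN3 to the CLDN12 locus was 0.338 to 0.555 with doxorubicin, against 0.569 to 0.760 with PBS.

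The 2 genes lie on chromosome 7, and the 250 bases before their start sites are shown because they fell the most of the set. CLDN12, whose locus also fell, lies on the same chromosome, and its window is described without its letters. The sequences are RefSeq's, from build GRCh38.p14, where 7 of the 10 genes have an entry. CLDN3 is read from the minus strand at chr7:73770271-73770520 and CLDN4 from the plus strand at chr7:73830746-73830995. Capitals mark the GC box, GGGCGG or CCGCCC on either strand, and the form TGANTCA, here called the AP-1 element. TGANTCA takes any base at its centre and reads the same on both strands, and narrower forms were not counted apart. The motifs do not overlap.
CLDN3: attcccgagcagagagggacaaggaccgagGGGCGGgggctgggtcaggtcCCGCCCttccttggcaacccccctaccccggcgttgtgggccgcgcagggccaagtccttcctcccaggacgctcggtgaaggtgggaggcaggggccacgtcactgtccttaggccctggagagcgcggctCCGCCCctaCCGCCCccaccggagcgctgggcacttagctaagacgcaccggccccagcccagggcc
CLDN4: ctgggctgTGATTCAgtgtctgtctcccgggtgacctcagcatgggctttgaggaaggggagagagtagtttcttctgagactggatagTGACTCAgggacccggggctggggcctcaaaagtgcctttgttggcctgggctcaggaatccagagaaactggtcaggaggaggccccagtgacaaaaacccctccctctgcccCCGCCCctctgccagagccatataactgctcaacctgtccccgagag
The CLDN3 window held 4 GC boxes and 0 AP-1 elements at 71.6% G and C, and the CLDN4 window held 1 GC box and 2 AP-1 elements at 58.8% G and C. Of 35116 windows of this length in the RefSeq table, 42.6% held a GC box and 6.57% an AP-1 element. Neither window held CAGGTG or CACCTG, the E-box forms bound by Snail-family repressors, which 17.5% of all windows held. The CLDN12 window held 0 GC boxes, 0 AP-1 elements and 0 of these E-box forms, at 54.4% G and C. OCLN, TJP1 and CLDN7, which gave no call in the main fit, each had a window with both a GC box and such an E-box. The CLDN1 window held GC boxes and no such E-box. No window of these other genes held an AP-1 element. A match describes the letters in the window and is not a measured binding site.

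CLDN12 is an atypical claudin that lacks the tail motif by which other claudins bind ZO-1. Its locus, shared with CDK14 and GTPBP10, was at 20.7 and 21.7 FPKM in doxorubicin-treated NSE4 cells, against 38.6 and 33.4 FPKM in PBS-treated NSE4 cells. In SMC5 cells the CLDN12 locus was at 23.5 FPKM with doxorubicin, against 38.5 and 31.8 FPKM with PBS. In GFP cells it was at 24.5 and 24.1 FPKM with doxorubicin, against 34.9 and 33.8 FPKM with PBS. All doxorubicin samples lay below all PBS samples. The log2 difference was -0.73 in NSE4 cells (SE 0.12, limma adjusted p = 0.00272), -0.55 in SMC5 cells (SE 0.14, limma adjusted p = 0.0296) and -0.48 in GFP cells (SE 0.12, limma adjusted p = 0.0164). The call for CLDN12 in GFP cells was lost without any 1 of the 4 GFP libraries (limma adjusted p = 0.0579 to 0.0797), and that in SMC5 cells without PBS-treated SMC5 replicate 1 (limma adjusted p = 0.115).

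The claudin partner pair of CLDN7 and EPCAM did not pass the test in any doxorubicin comparison, though CLDN7 in GFP cells and EPCAM in NSE4 cells passed with median-ratio size factors (limma adjusted p = 0.0413 and 0.0475). The CLDN7 locus, the most abundant of the set, was at 426 and 499 FPKM in doxorubicin-treated NSE4 cells, against 478 and 530 FPKM in PBS-treated NSE4 cells. In GFP cells the CLDN7 locus was at 406 and 421 FPKM with doxorubicin, against 443 and 524 FPKM with PBS. The treatments overlapped over all samples, and its log2 differences were -0.13 in NSE4, -0.16 in SMC5 and -0.22 in GFP cells (limma adjusted p = 0.427, 0.451 and 0.176). EPCAM was at 123 to 129 FPKM in the 5 doxorubicin samples, against 129 to 146 FPKM in the 6 PBS samples. Its samples did not overlap but nearly touched, and its log2 differences were -0.18 in NSE4, -0.14 in SMC5 and -0.07 in GFP cells (limma adjusted p = 0.115, 0.326 and 0.517). Over all tested loci, all doxorubicin samples lay below all PBS samples for 18.6%, and among the 9 junction loci for 4: CLDN3, CLDN4, CLDN12 and EPCAM. All doxorubicin samples lay above all PBS samples for 22.0% of all tested loci and for 0 of these 9.

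Occludin, junctional adhesion molecule A, ZO-1 and E-cadherin likewise gave no call. OCLN was at 7.88 to 8.82 FPKM with doxorubicin, against 8.55 to 10.7 FPKM with PBS, and the treatments overlapped. Its largest log2 difference was -0.33 in GFP cells (SE 0.13, limma adjusted p = 0.0805). This value passed the threshold under 2 other scalings and with all 12 columns kept apart (limma adjusted p = 0.025 to 0.0494). The main F11R locus was at 206 to 249 FPKM with doxorubicin, against 225 to 275 FPKM with PBS, and its log2 differences were between -0.08 and -0.11. The second F11R locus was at most at 0.303 FPKM in any sample. TJP1 was at 19.3 to 22.3 FPKM with doxorubicin, against 19.5 to 22.0 FPKM with PBS, and its highest sample was 1.16 times its lowest. CDH1 was at 24.2 to 30.1 FPKM with doxorubicin, against 24.2 to 29.1 FPKM with PBS. Its log2 difference was 0.15 in NSE4 cells (95% interval -0.09 to 0.38), -0.03 in SMC5 cells (-0.31 to 0.26) and -0.11 in GFP cells (-0.34 to 0.13). Under quantile normalization the sign turned for F11R, TJP1 and EPCAM in GFP cells. It also turned for F11R and CLDN7 in NSE4 cells and for CLDN7 in SMC5 cells. The sign of these differences thus depended on the normalization.

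**Figure D2:**
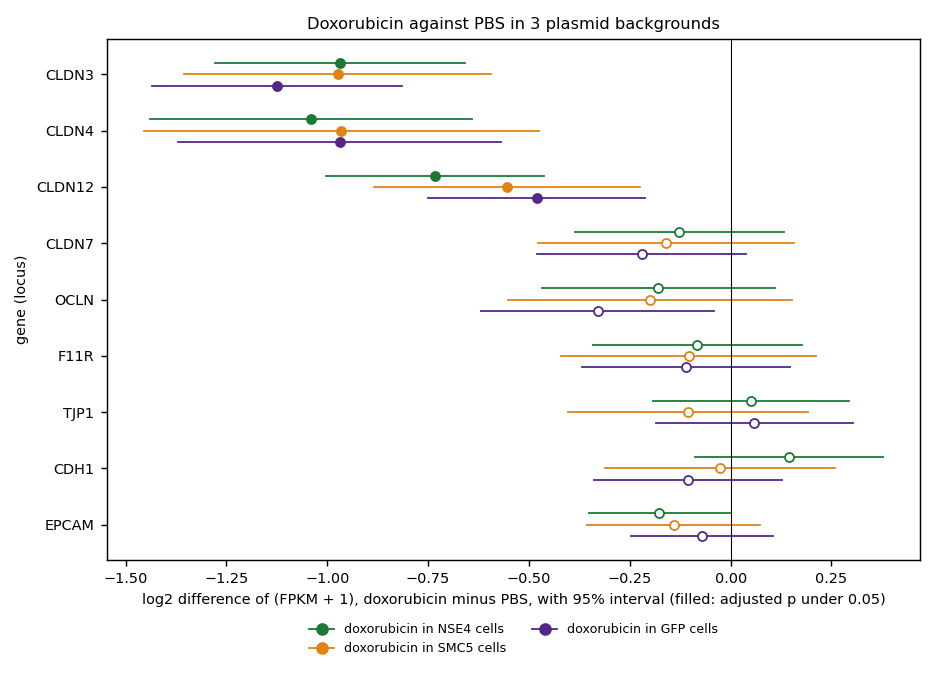
Log2 difference of (FPKM + 1), doxorubicin minus PBS, for the 9 tested junction loci in NSE4, SMC5 and GFP cells, with the 95% interval of the limma fit. CLDN3 and CLDN4 lie near -1 and CLDN12 between -0.48 and -0.73, while the intervals of CLDN7, F11R, TJP1 and CDH1 cross 0 in all 3 kinds of cells.

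CLDN1, a barrier claudin known from skin, was nearly silent, with higher values under doxorubicin. It was at 0.388 and 0.854 FPKM in doxorubicin-treated NSE4 cells, against 0.155 and 0.148 FPKM in PBS-treated NSE4 cells. In SMC5 cells the 2 columns with doxorubicin were at 0.669 and 0.625 FPKM, against 0.157 and 0.219 FPKM with PBS. In GFP cells CLDN1 was at 0.363 and 0.513 FPKM with doxorubicin, against 0.152 and 0.217 FPKM with PBS. All doxorubicin samples lay above all PBS samples, on an estimated 19 to 51 fragments per library with doxorubicin and 9 to 12 with PBS, if all came from the longest annotated transcript. With no filter on low values, over 33654 loci, the log2 difference of CLDN1 was 0.48 in NSE4, 0.47 in SMC5 and 0.28 in GFP cells (limma adjusted p = 0.0755, 0.147 and 0.274), so it did not pass the test.

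The plasmids were compared to ask whether more NSE4A or SMC5 alters the junction genes. None of the 9 loci was called by limma for NSE4 against GFP cells with doxorubicin (0.0568% of all loci called), SMC5 against GFP cells with doxorubicin (0.0316%), NSE4 against GFP cells with PBS (0.0442%) or SMC5 against GFP cells with PBS (0.0% of all loci, 489 at an unadjusted p under 0.05). None of the 9 had an unadjusted p under 0.05 either. In cells given doxorubicin, the log2 difference of CLDN3 was 0.21 for NSE4 against GFP (95% interval -0.10 to 0.52) and 0.27 for SMC5 against GFP (-0.11 to 0.65). In the same cells that of CLDN4 was 0.16 for NSE4 (-0.24 to 0.56) and 0.18 for SMC5 (-0.31 to 0.67). With PBS, that of CLDN4 was 0.23 for NSE4 (-0.17 to 0.63) and 0.17 for SMC5 (-0.23 to 0.57), and both turned negative without GFP replicate 1, the lowest PBS library for CLDN4 (-0.03 and -0.09). The differences of all 9 loci lay between -0.20 and 0.27 in the 4 comparisons. Comparisons at the same treatment share their GFP libraries, and a p that misses the threshold does not show that the cells were alike.

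**Figure D3:**
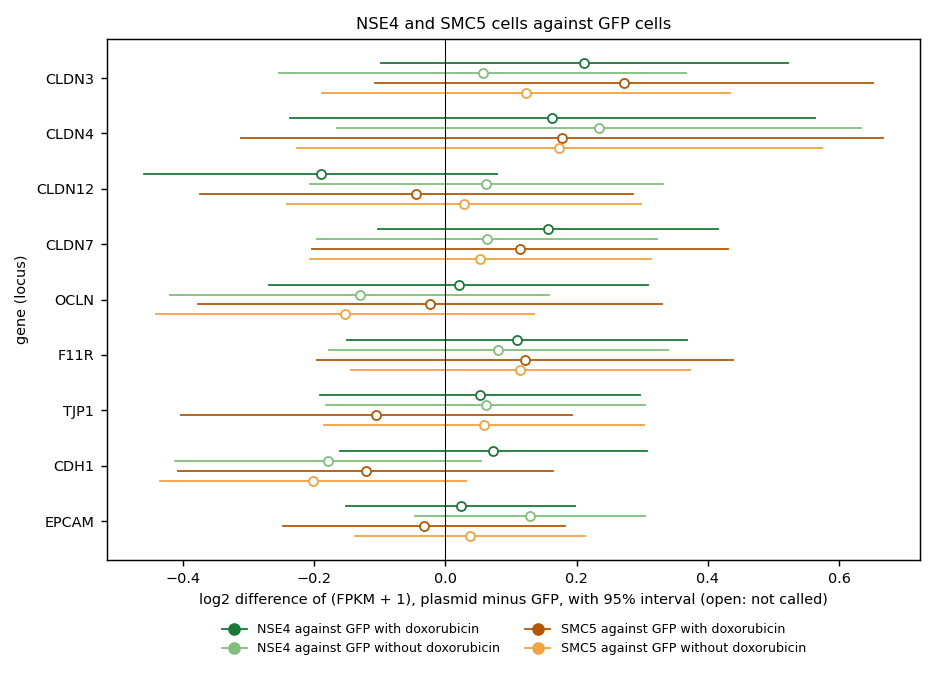
Log2 difference of (FPKM + 1) of NSE4 and SMC5 cells minus GFP cells, with and without doxorubicin, for the 9 tested junction loci, with 95% intervals. Points lie between -0.20 and 0.27, and every interval crosses 0.

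Whether the plasmids changed the response to doxorubicin was tested as an interaction. By limma 0 of the 9 loci passed for NSE4, where 0.0316% of all loci did, and 0 for SMC5, where 0.0189% did, and none had an unadjusted p under 0.05. The response of CLDN3 differed from that in GFP cells by 0.15 on the log2 scale in NSE4 cells (95% interval -0.28 to 0.59) and by 0.15 in SMC5 cells (-0.34 to 0.64). That of CLDN4 differed by -0.07 in NSE4 cells (-0.64 to 0.49) and by 0.0044 in SMC5 cells (-0.63 to 0.64). That of the CLDN12 locus differed by -0.25 in NSE4 cells (-0.63 to 0.13) and by -0.07 in SMC5 cells (-0.50 to 0.35). The fall of CLDN3, CLDN4 and the CLDN12 locus under doxorubicin was thus seen with each plasmid. No difference between plasmids was detectable at this precision.

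The genes closest to CLDN3 and TJP1, the lowest and highest of the 9 for doxorubicin in GFP cells, were looked up by Pearson correlation of log2(FPKM + 1) over the 11 samples among 5501 loci of at least 10 FPKM on average. For CLDN3 they were GORASP2 (r = 0.993), ANAPC15 (0.990), SMS (0.989), CMIP (0.989) and RPRD1A (0.989). The samples of CLDN3 fall into separate doxorubicin and PBS clusters, so these values describe a shared contrast between treatments. For TJP1 they were IQGAP1 (r = 0.823), COPS2 (0.788), ABHD3 (0.788), EIF2AK2 (0.777) and PPWD1 (0.748). The highest TJP1 sample was 1.16 times its lowest, and these r are the top of 5501 loci over 11 samples. Whether they exceed those of unrelated loci was not tested.

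Loci of the remaining claudins were called in both directions. In GFP cells the only fall was at a locus that CLDN15 shares with FIS1. Of 18 other claudin genes 5 were tested, and under doxorubicin 3 loci rose and 1 fell in each kind of cell, with a median of 0.74 in GFP cells beside 0.02 for all tested loci. Of all tested loci, 31.1% were called in GFP, 30.2% in NSE4 and 20.9% in SMC5 cells. The count of 4 called claudin loci in GFP cells was 2 without GFP replicate 2 or GFP-DOX replicate 2, and 7 with no filter on low values. CLDN2, a claudin that forms cation pores, was at 3.34 and 3.78 FPKM in doxorubicin-treated NSE4 cells against 1.45 and 1.58 FPKM with PBS, and at 2.61 and 3.86 FPKM in doxorubicin-treated GFP cells against 1.53 and 1.47 FPKM with PBS. It rose in each kind of cell, by 0.86 in NSE4, 0.87 in SMC5 and 0.74 in GFP cells on the log2 scale (limma adjusted p = 0.00745, 0.0228 and 0.0131). The call for CLDN2 in NSE4 cells held without each library, that in SMC5 cells was lost without either SMC5 replicate (limma adjusted p = 0.0607 and 0.0781), and that in GFP cells without either GFP replicate or GFP-DOX replicate 2 (limma adjusted p = 0.0527 to 0.0714). In GFP cells the CLDN9 locus rose by 1.39 (SE 0.22, limma adjusted p = 0.00247) and the CLDN23 locus by 0.78 (SE 0.16, limma adjusted p = 0.00907), the call for CLDN23 being lost without GFP replicate 2 or GFP-DOX replicate 2 (limma adjusted p = 0.0602 and 0.0613). The locus shared by CLDN15 and FIS1, a mitochondrial fission gene, fell by 0.72 (SE 0.12, limma adjusted p = 0.00309). Its value cannot be split between these genes. CLDN5, an endothelial claudin, was at 0.371 to 0.569 FPKM with doxorubicin, against 0.0567 to 0.172 FPKM with PBS, and CLDN6 at 0.521 to 0.852 FPKM, against 0 to 0.314 FPKM. With no filter these 2 and CLDN11 were also higher in GFP cells (limma adjusted p = 0.0116, 0.0266 and 0.0437), and the 3 were picked after their values were seen.

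Among the other tight junction genes MAGI1, TJP3, PARD3 and a locus of SYMPK fell in GFP cells, and LSR, MARVELD3 and CGN rose. Of 18 loci of other tight junction proteins, 3 rose and 4 fell in NSE4 and in GFP cells, and 2 rose and 3 fell in SMC5 cells. The share called over all tested loci was 31.1% in GFP, 30.2% in NSE4 and 20.9% in SMC5 cells. The median of the 18 was -0.10 in GFP cells. MAGI1, a scaffold of cell contacts, was at 7.35 to 11.8 FPKM with doxorubicin, against 29.4 to 34.1 FPKM with PBS, and fell by 1.80 in GFP cells (SE 0.19, limma adjusted p = 4.10e-04). TJP3, which encodes ZO-3, a relative of ZO-1, fell by 0.97 (SE 0.10, limma adjusted p = 3.30e-04), whereas TJP1 itself gave 0.06. PARD3, a polarity protein, fell by 0.83 (limma adjusted p = 0.0023). LSR, which marks contacts where 3 cells meet, was at 284 to 308 FPKM with doxorubicin, against 159 to 188 FPKM with PBS, and rose by 0.73 (SE 0.10, limma adjusted p = 0.00142). MARVELD3, of the occludin family, rose by 0.75 and CGN, the plaque protein cingulin, by 0.60 (limma adjusted p = 0.00771 and 0.0379). The call for MARVELD3 was lost without GFP replicate 1 (limma adjusted p = 0.0537) and that for CGN without GFP replicate 1 or either GFP-DOX replicate (limma adjusted p = 0.107 to 0.194) and with no filter (limma adjusted p = 0.0977), and 4 of the 18 loci were called without GFP replicate 1.

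At the adherens junction the loci around CDH1 were called in both directions. Of 14 loci 2 rose and 3 fell in GFP cells, with a median of 0.01, and 2 rose and 2 fell in NSE4 and in SMC5 cells. Of all tested loci 31.1% were called in GFP cells, 30.2% in NSE4 cells and 20.9% in SMC5 cells. CTNNB1, beta-catenin, was at 104 to 111 FPKM with doxorubicin, against 103 to 109.8 FPKM with PBS, with a log2 difference of 0.02 in GFP cells that turned negative under median-ratio scaling. The locus of CTNND1, p120-catenin, which it shares with TMX2 and SELENOH, fell by 0.60 (SE 0.12, limma adjusted p = 0.00619). NECTIN4, an immunoglobulin-type adhesion molecule, rose by 0.99 (SE 0.22, limma adjusted p = 0.0119), and AFDN, which binds nectins to actin, fell by 0.36 (limma adjusted p = 0.0393). Without GFP replicate 1 or GFP-DOX replicate 2 the call for NECTIN4 was lost (limma adjusted p = 0.0609 and 0.072), that for AFDN was lost without any 1 of the 4 GFP libraries (limma adjusted p = 0.0692 to 0.161) and with no filter (limma adjusted p = 0.0546), and the list's count of 5 became 1 or 2 without any of these libraries and 2 with no filter.

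Desmosomes, the spot junctions tied to keratin filaments, showed 1 rise and 4 falls among 7 loci in GFP cells, 1 and 3 in NSE4 cells and 1 and 2 in SMC5 cells, with a median of -0.30 in GFP cells. Beside these counts, 31.1% of all tested loci were called in GFP, 30.2% in NSE4 and 20.9% in SMC5 cells. DSC3, a desmosomal cadherin of stratified epithelia, rose by 1.56 in GFP cells (SE 0.22, limma adjusted p = 0.00145). DSG2, the main desmosomal cadherin of simple epithelia, fell by 0.45 and PERP, a p53 target of desmosomes, by 0.42 (limma adjusted p = 0.0171 and 0.0225). Without GFP replicate 1 or GFP-DOX replicate 2 both were lost (limma adjusted p = 0.0841 to 0.125) and the list's count fell to 1, it was 3 without GFP replicate 2 and 2 without GFP-DOX replicate 1, and PERP was also lost without either of the other 2 GFP libraries (limma adjusted p = 0.051 and 0.0543) and under quantile normalization (limma adjusted p = 0.0538).

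Genes of the protease that acts on EPCAM were called, though EPCAM itself was not. ST14, the protease matriptase, which cleaves EPCAM, rose by 0.77 in GFP cells (SE 0.14, limma adjusted p = 0.00524). SPINT1, an inhibitor of matriptase, rose by 0.42 (limma adjusted p = 0.0228), which did not hold when GFP replicate 1, GFP replicate 2 or GFP-DOX replicate 2 was left out (limma adjusted p = 0.0536 to 0.123). The locus of SPINT2, another matriptase inhibitor, which it shares with C19orf33, gave -0.29 in GFP cells and did not pass (limma adjusted p = 0.0561), but passed with median-ratio size factors (limma adjusted p = 0.00728). Of these 3 loci 2 rose and 1 fell in NSE4 cells, 1 rose and 0 fell in SMC5 cells and 2 rose and 0 fell in GFP cells. Over all tested loci 31.1% were called in GFP, 30.2% in NSE4 and 20.9% in SMC5 cells. The median of the 3 loci was 0.42 in GFP cells. The count in GFP cells was 1 without GFP replicate 1, GFP replicate 2 or GFP-DOX replicate 2.

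Regulators of the epithelial state were read from lists of activators and repressors. Of 9 loci of epithelial transcription and splicing regulators, 4 rose and 1 fell in NSE4 and in GFP cells, and 3 rose and 0 fell in SMC5 cells. The median of the 9 was 0.38 in GFP cells. Beside both lists, 31.1% of all tested loci were called in GFP, 30.2% in NSE4 and 20.9% in SMC5 cells. ESRP2, an epithelial splicing regulator, rose by 0.72 in GFP cells (SE 0.13, limma adjusted p = 0.00389). KLF5 rose by 0.54 and the OVOL2 locus by 0.47 (limma adjusted p = 0.0088 and 0.014), calls lost without GFP replicate 2, and without GFP-DOX replicate 1 for KLF5 and GFP-DOX replicate 2 for OVOL2 (limma adjusted p = 0.0515 to 0.0794); the list's count was 1 with GFP replicate 2 left out and 2 with GFP-DOX replicate 2 left out. The OVOL2 locus is shared with SNX5, a gene outside this list, and its value cannot be split between them. The 1 locus of this list that fell in GFP cells was the main ELF3 locus, at -0.48. ELF3 was at 80.5 to 103.9 FPKM with doxorubicin, against 104.1 to 132.8 FPKM with PBS, so the treatments nearly touched. Whether the ELF3 call held without each library was not tested. Of 5 repressor loci 1 rose and 0 fell in each kind of cell, with a median of 0.10 in GFP cells. SNAI1, which encodes the CDH1 repressor Snail, was at 17.0 and 18.7 FPKM in doxorubicin-treated NSE4 cells against 11.5 and 11.5 FPKM with PBS, at 19.4 FPKM in doxorubicin-treated SMC5 cells against 11.5 and 12.9 FPKM with PBS, and at 21.4 and 17.5 FPKM in doxorubicin-treated GFP cells against 9.72 and 13.2 FPKM with PBS. SNAI1 was higher in every doxorubicin sample and rose by 0.59 in NSE4, 0.63 in SMC5 and 0.72 in GFP cells (limma adjusted p = 0.0233, 0.0492 and 0.00985), while CDH1 gave no call. The call for SNAI1 was lost without any 1 of the 4 NSE4 libraries (limma adjusted p = 0.0624 to 0.110), without either SMC5 replicate (limma adjusted p = 0.0881 and 0.162) and in GFP cells without GFP replicate 1 or GFP-DOX replicate 1 (limma adjusted p = 0.0596 and 0.0605). It was also lost with no filter in NSE4 and SMC5 cells (limma adjusted p = 0.0596 and 0.0958), and in SMC5 cells under quantile normalization and with a pseudocount of 0.1 (limma adjusted p = 0.0617 and 0.0511). SNAI2 gave 0.75 in GFP cells and did not pass (limma adjusted p = 0.0631), except with 12 columns as separate samples (limma adjusted p = 0.0402). TCF3, which encodes the E-box-binding E2A proteins, gave -0.25 in GFP cells and did not pass (limma adjusted p = 0.189), except with median-ratio size factors or quantile normalization (limma adjusted p = 0.0493 and 0.0331).

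**Figure D4:**
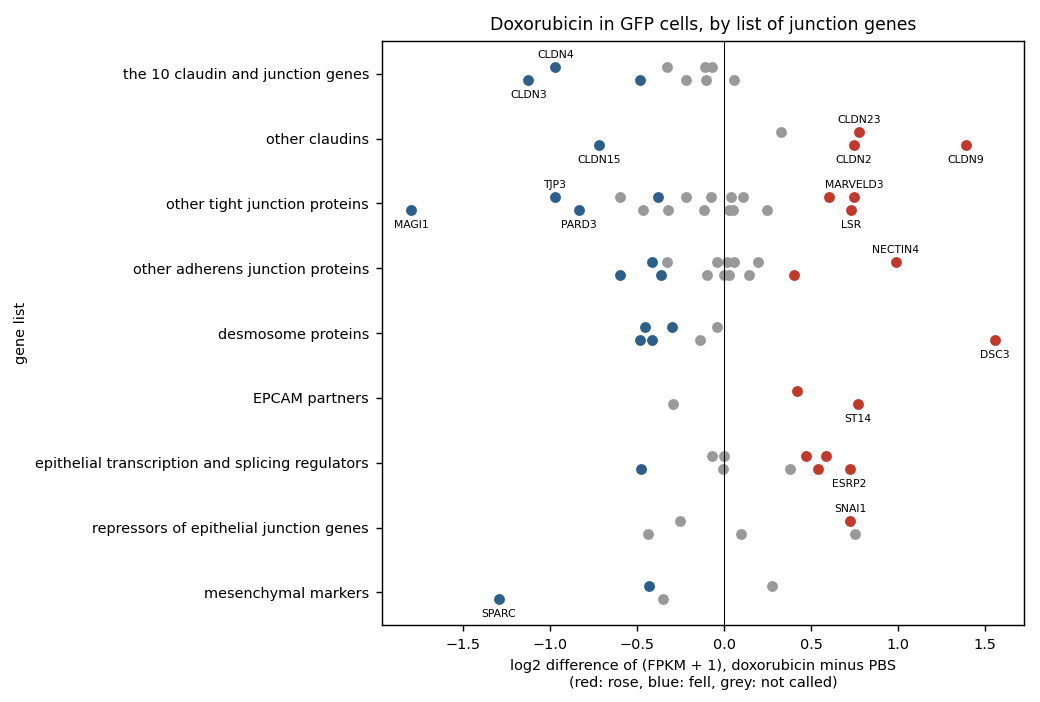
Log2 difference of (FPKM + 1), doxorubicin minus PBS, in GFP cells for each tested locus of the junction genes and of 8 related lists. Red points rose, blue points fell and grey points did not pass limma's adjusted p of 0.05. The claudin and junction set holds 3 falls and no rise. The other claudins hold 3 rises and 1 fall, at the locus CLDN15 shares with FIS1.

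Markers of other cell types were read beside these results. Over loci of a single gene, the summed level of 5 mesenchymal markers was 7.68 to 9.53 FPKM with doxorubicin, against 9.06 to 12.3 FPKM with PBS, and CDH2 and TGFBI were under 0.5 FPKM in every sample. That of 6 fibroblast markers was 16.1 to 28.0 FPKM with doxorubicin, against 18.2 to 25.6 FPKM with PBS, with COL1A2, COL3A1, DCN and THY1 under 0.5 FPKM in every sample. That of 4 endothelial and leukocyte markers was 0.223 to 0.295 FPKM with doxorubicin, against 0.120 to 0.331 FPKM with PBS, with all 4 under 0.5 FPKM. Of 4 tested mesenchymal loci 0 rose and 2 fell in GFP cells, where 17.0% of all tested loci rose and 14.1% fell. The median of the 4 mesenchymal loci was -0.39. The part of these markers in the junction results was not tested. The 2 that fell were SPARC, a matrix protein, by 1.29, and the locus of S100A4, which it shares with other S100 genes, by 0.43 (limma adjusted p = 0.00929 and 0.0181), and both were lost without GFP-DOX replicate 2 (limma adjusted p = 0.0509 and 0.107), S100A4 also without GFP replicate 2 (limma adjusted p = 0.105), with no filter (limma adjusted p = 0.102) and under quantile normalization, where its difference was -0.16 (limma adjusted p = 0.335). The only tested fibroblast locus, COL1A1, which makes up most of that sum, was at 15.6 to 27.0 FPKM with doxorubicin, against 17.7 to 25.2 FPKM with PBS, and gave 0.16 in GFP cells (limma adjusted p = 0.712). PDGFRB, a receptor of fibroblasts and pericytes, was below the filter, at 0.424 to 1.21 FPKM with doxorubicin, against 0.0131 to 0.158 FPKM with PBS, so every doxorubicin sample was higher. With no filter its log2 difference was 0.56 in NSE4 and 0.96 in GFP cells (limma adjusted p = 0.0289 and 0.00483). In SMC5 cells, where the doxorubicin group is 1 sample, PDGFRB gave 0.53 and did not pass. DCN gave 0.25 in SMC5 cells, at 0 FPKM in every PBS sample and at most 0.187 FPKM with doxorubicin. The only tested endothelial or leukocyte locus was that of CD14, shared with the respiratory chain gene NDUFA2, which rose by 0.37 (limma adjusted p = 0.0137), which did not hold when GFP replicate 1 or either GFP-DOX replicate was left out (limma adjusted p = 0.0502 to 0.0903). Of 8 colorectal epithelial loci, EPCAM and CDH1 among them, 3 rose and 2 fell in GFP cells, with KRT20, a keratin of differentiated enterocytes, up by 1.68 (limma adjusted p = 2.13e-04), VIL1, the microvillus protein villin, up by 1.32 (limma adjusted p = 0.00445) and the locus of KRT18, a keratin of simple epithelia, down, at -0.63 (limma adjusted p = 0.00285), with a median of -0.04, and their count was 3 without GFP replicate 2 or either GFP-DOX replicate and with no filter. No locus of these lists was called for either plasmid against GFP cells with PBS. Among the 2 smallest p-values of each list there, the largest difference was that of CDX2, an intestinal transcription factor, at 0.53 in SMC5 against GFP cells (SE 0.23, limma adjusted p = 1).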

How the data were processed

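RNA-seq of 12 libraries of HCT116 cells gave the FPKM values deposited by the authors, made with TopHat and Cufflinks per the submitters' processing notes; versions and the genome build are not given in the sources used here. All 12 columns were used, and the near-identical SMC5-DOX columns were averaged, which left 11 samples. From FPKM, log2(FPKM + 1) was fitted with limma 3.58.1 (R 4.3.3), with an intensity trend, all 6 groups in 1 fit and 5 residual degrees of freedom, over 15833 loci with at least 1 FPKM in at least 2 samples. P-values were adjusted by Benjamini-Hochberg over all tested loci at 0.05; "rose" and "fell" refer to this. The method was tested on simulated data in which a small part of the loci was changed. A planted log2 change of 1 was recovered at 33% to 71% of the changed loci, depending on the comparison, so a missing call is weak evidence. Fragment depth was estimated from FPKM steps and GENCODE 29 lengths; it covers counting error only. Motif counts and figures used matplotlib 3.10.9, numpy 2.4.6 and pandas 2.3.3 under Python 3.11.15. Named were all 10 genes, SMC5 and NSMCE4A, up to 3 loci of smallest p per list for doxorubicin in GFP cells, up to 2 for each plasmid and the 5 closest loci to CLDN3 and TJP1. The CLDN2, CLDN5, CLDN6, CLDN11, PDGFRB, DCN, SYMPK, PARD3, MARVELD3, CGN, CTNNB1 and ELF3 loci were added after their values were seen. Some listed genes are not reported here. The genes and lists were chosen with earlier results of these data known. Alternatives were 2 scalings, a pseudocount of 0.1, no filter, a replicate block, 12 columns as separate samples and leaving out each library.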

Additional observations from a re-analysis of the deposited data

How the results depend on the processing

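Of 444 log2 differences of the junction genes under the alternatives, 406 kept their direction and their side of the threshold, 6 fell short of it, 7 passed it and 25 changed sign. The count of junction loci called for doxorubicin in GFP cells was 5 in place of 3 with median-ratio size factors, where CLDN7 and OCLN also fell (EPCAM also fell in NSE4 cells), and was within 1.5 times of 3 otherwise. Under quantile normalization the sign changed in GFP cells for F11R (0.028), TJP1 (-0.0025) and EPCAM (0.0099), in NSE4 cells for CLDN7 (0.059) and F11R (0.058) and in SMC5 cells for CLDN7 (0.047). With median-ratio size factors CTNNB1 in GFP cells was -0.016. With 12 columns as separate samples the SMC5 interaction of CLDN4 was -0.0020. Leaving out 1 library in turn gave -0.0096 to 0.13 for TJP1, -0.030 to 0.063 for CTNNB1 and -0.20 to 0.51 for COL1A1 in GFP cells, -0.18 to 0.010 for F11R and -0.025 to 0.13 for TJP1 in NSE4 cells, and -0.22 to 0.015 for F11R in SMC5 cells. For NSE4 against GFP with PBS it gave -0.021 to 0.13 for CLDN3, -0.026 to 0.49 for CLDN4 and -0.040 to 0.16 for CLDN12, and for SMC5 against GFP with PBS -0.087 to 0.43 for CLDN4 and -0.11 to 0.16 for CLDN12. For the NSE4 interaction it gave -0.031 to 0.34 for CLDN3 and -0.33 to 0.19 for CLDN4, and for the SMC5 interaction -0.036 to 0.34 for CLDN3, -0.26 to 0.26 for CLDN4 and -0.21 to 0.061 for CLDN12. The lone SMC5-DOX sample could not be left out, and where a library was left out its partner was assumed to vary like the other groups. The cause of these changes was not tested.

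All-locus counts moved too. For doxorubicin they were 2956 to 3032 in GFP cells without GFP replicate 1, GFP replicate 2 or GFP-DOX replicate 2 (4919 with all), 2926 to 3066 in NSE4 cells without NSE4 replicate 1 or either NSE4-DOX replicate (4780 with all), and in SMC5 cells 1798 and 1966 without SMC5 replicate 1 and 2 and 5845 with 12 columns (3310 with all). With no filter the plasmid and interaction counts were 11, 9, 100, 539, 71 and 431, against 7, 0, 9, 5, 5 and 3, with no junction gene among them. With 12 columns as separate samples they reached 1 for SMC5 against GFP with PBS, 18 for NSE4 and 12 for SMC5 against GFP with doxorubicin and 5 for the SMC5 interaction. A pseudocount of 0.1 gave 3 for NSE4 against GFP with PBS, 5 for NSE4 and 2 for SMC5 with doxorubicin and 2 for the NSE4 interaction. Where leaving out a library moved a count in these comparisons, it gave 2 to 11. Of the 28 named list loci that were called in GFP cells and followed when libraries were left out, 15 lost the call without some library. The count of repressor loci there was 2 in place of 1 under both scalings, with the replicate block and with 12 columns, and that of mesenchymal loci 1 in place of 2 under quantile normalization and with no filter.

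The sources do not say what the replicate numbers share. The correlation of replicate differences between groups was -0.127 to 0.274 over 15 pairs of groups and 7439 loci and above 0.1 in 7. Among these 7 were all 5 pairs with the near-identical SMC5-DOX columns, and the other 10 pairs gave -0.127 to 0.138. Between the treatments of 1 plasmid it was 0.012 in GFP, 0.072 in NSE4 and 0.274 in SMC5 cells. The mitochondrial share of FPKM was higher in replicate 1 in 6 of 6 groups. These values do not settle whether the numbers mark a pairing, and the main fit used no pairing. With the replicate block CLDN7, SPINT2 and TCF3 in GFP cells (limma adjusted p = 0.0323, 0.00231 and 0.0287) and EPCAM in NSE4 cells (limma adjusted p = 0.0344) passed the threshold, and the count of all loci was 3 for SMC5 against GFP with doxorubicin and 3 for the NSE4 interaction. Depth limits CLDN1, read from 9 to 51 fragments, and the intervals limit what can be said of the plasmids.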

Other observations

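The 3 most abundant junction loci, CLDN4, CLDN7 and F11R, were higher in replicate 2 than in replicate 1 in 6 of 6 groups. The ratio of replicate 2 to replicate 1 was 1.06 to 1.44 for CLDN4, 1.04 to 1.18 for CLDN7 and 1.05 to 1.18 for F11R. The near-identical SMC5-DOX columns differed in the same genes, by ratios of 1.21 for CLDN4, 1.13 for CLDN7 and 1.17 for F11R. TJP1 and the CLDN12 locus went the other way, with replicate 2 higher in only 1 of 6 groups each. The mitochondrial share of summed FPKM was higher in replicate 1 in 6 of 6 groups, by 5.08 to 10.7 percentage points, and its part in this pattern was not tested. This pattern was noticed in the data.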
